A study of Mus musculus with 18 samples.

Results

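The genes described here are 7 effectors of the Hedgehog pathway, namely Gli1, Gli2, Gli3, Ptch1, Smo, Hhip and Sufu, in mouse mammary carcinoma cells that carried an inducible MRTFA construct. They were taken by name from a table of 32286 gene entries, and all 7 were present and passed the filter on low counts, as did 17841 entries in all. They were chosen by name, with their counts in these same 18 libraries and the differences between the groups already known, so every comparison below may have been used in the choice. The members' fold changes and p-values are therefore a description, and the adjusted p-values, taken from a fit over all genes, say only how a difference compares with the spread between libraries.

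The cells were AT-3, a line derived from a mammary tumour of an MMTV-PyMT mouse, and E0771, a line from a spontaneous mammary tumour of a C57BL/6 mouse. Each line carried the retroviral vector pRetroX, either empty, with wild-type MRTFA or with MRTFA Y238A, a form deficient in binding to SRF, and all groups, the empty-vector controls included, received doxycycline at 2 µg/ml for 48 h. MRTFA is a coactivator that carries signals from the actin cytoskeleton to the transcription factor SRF. There were 6 groups of 3 mRNA-seq libraries, and the labels number the libraries by replicate set without naming separate cultures, so p-values measure the spread between these libraries, which may be technical. The labels do not say whether a line was a clone or a pool, so an effect of a construct and one of a particular infected culture cannot be told apart.

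Hedgehog ligands bind the receptor Patched, encoded by Ptch1, and lift its block on the membrane protein Smoothened, encoded by Smo. Smoothened then acts in the primary cilium to free the GLI transcription factors from the inhibitor Sufu. Gli2 is mainly an activator, Gli3 is processed largely to a repressor, and Gli1 is both an activator and a target gene of the others. Ptch1 and Hhip, which encodes a membrane protein that sequesters ligand, are also target genes and dampen the signal. In the mammary gland the pathway is known mainly from the stroma and from the repression by Gli3 that bud formation needs.

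GLI proteins recognise a short motif with the core CCACCC, and the promoter windows that hold this core are shown because these genes are the pathway's own transcription factors, transducer and feedback inhibitor. RefSeq windows on GRCm38.p6, from 250 bases before the gene start to 50 after it, matched 6 of the 7 members, and Gli1 was not among them. On either strand the core was in 4 of these 6 windows, and in 31.5% of all 32851 windows of the same length. The longer form GACCACCCA was in 0 of the 6 and in 0.253% of all windows, and the CArG box, the element that SRF binds, was in 0 of the 6 and in 1.63%. Each stretch below is written 5′ to 3′ on the strand of its gene, with 1 match of the core or its reverse complement in capitals.
Gli2, chr1:119053799-119053844, minus strand: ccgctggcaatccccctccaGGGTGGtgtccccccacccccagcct
Gli3, chr13:15463533-15463578, plus strand: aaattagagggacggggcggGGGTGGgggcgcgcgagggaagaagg
Hhip, chr8:80058141-80058186, minus strand: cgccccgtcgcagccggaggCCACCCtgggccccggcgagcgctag
Smo, chr6:29735315-29735360, plus strand: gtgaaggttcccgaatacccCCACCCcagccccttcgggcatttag
The core began 205 bases before the RefSeq start of Gli2, 170 before that of Gli3, 158 before that of Hhip and 162 before that of Smo. Gli2 held another match 192 bases before its start, which lies in the same stretch in lower case. In GENCODE M21 the Gli3 gene starts at chr13:15463235, so the Gli3 stretch lies after that start. The share of members with the core is a description of these windows and not evidence of binding.

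Library totals lay between 81265466 and 115260128 counts, and levels are given as CPM, the count scaled to library size after TMM correction. The MRTFA entry, the construct, stood at no more than 0.115 CPM with empty vector. In AT-3 it was at 4386 to 7082 CPM as wild type and 1958 to 2326 CPM as Y238A, and in E0771 at 707 to 866 CPM and 279.9 to 354 CPM. Wild type and Y238A thus also differed in amount, and each was higher in AT-3 than in E0771. Of 5 epithelial markers, Krt18, Epcam and Cdh1 had a mean under 1 CPM over all AT-3 libraries. Over all E0771 libraries these were Krt18, Krt19 and Cdh1. Krt8 was high in E0771, at a mean of 317 CPM with empty vector, 622 CPM with wild type and 387 CPM with Y238A. Epcam was at 2.02, 1.64 and 2.38 CPM there in the same order. By group, 1 of the 5 was above 1 CPM in AT-3 with empty vector and with Y238A, and 3 with wild type. Of 3 basal markers, 2 were above 1 CPM in AT-3 with empty vector and with Y238A. With wild type in AT-3 and in each E0771 group it was 1. The labelled mammary carcinoma type was thus only partly borne out by its markers, while 3 of 5 fibroblast markers were above 1 CPM in both lines. These markers differed between the AT-3 groups: the summed level of the 5 fibroblast markers was 516 to 562 CPM with empty vector, 102.2 to 118 CPM with wild type and 379 to 427 CPM with Y238A, and that of the 5 epithelial markers was 5.56 to 5.90, 43.7 to 46.4 and 66.0 to 78.5 CPM. Most of the epithelial sum was Krt19, at a mean of 3.88, 33.6 and 69.5 CPM in the same order of groups. Krt8 was at 9.17 to 11.1 CPM with wild type and at most 0.238 CPM in the other AT-3 libraries. Krt18 and Epcam had lower means with each construct than with empty vector, and Cdh1 had higher means. The 4 leukocyte markers summed to 3.31 to 4.01, 21.2 to 21.4 and 70.1 to 75.4 CPM in that order, nearly all of it Cd68, with Ptprc at a mean of at most 0.159 CPM. Their part in the AT-3 differences below was not tested. Some E0771 libraries held transcripts of AT-3: the median of 229 genes that mark AT-3 reached 1.40% of its AT-3 level in the library of empty vector replicate 2, 0.581% in wild-type replicate 2, 0.286% in Y238A replicate 1 and at most 0.0620% in the others. In the AT-3 libraries, 91 genes that mark E0771 had a median of 0.0620% to 0.248% of their E0771 level. Among E0771 cells with Y238A, replicate 2 was distant from its group, and among AT-3 cells with wild type it was replicate 1. Their chi-square distances to their partners were 40.1 to 68.4 per degree of freedom, against 6.84 to 19.0 for all other pairs.

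Gli1, the activator that is also a target gene, fell with both constructs in AT-3 and with wild type alone in E0771, where Y238A did not pass the test. In AT-3 it was measured at 6.18, 5.51 and 5.24 CPM with empty vector, at 0.3005, 0.738 and 0.507 CPM with wild-type MRTFA and at 0.645, 0.570 and 0.546 CPM with Y238A (replicates 1, 2 and 3). Every empty-vector library was above every library with a construct, and wild type and Y238A overlapped. The log2 fold change was -3.48 ± 0.27 (SE) with wild type, an 11.1-fold fall (edgeR adjusted p = 1.40e-08), and -3.26 ± 0.26 with Y238A (edgeR adjusted p = 6.17e-08). Between the constructs it was -0.22, with a 95% interval from -0.98 to 0.55 (edgeR adjusted p = 0.612), so neither order of the constructs was shown. Gli1 in these AT-3 libraries with a construct was at 0.688% to 1.95% of its E0771 level, beside the 0.0620% to 0.248% of the genes that mark E0771, whose part in these low values was not tested. In bulk RNA, fewer cells with the transcript and less transcript per cell cannot be told apart.

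In E0771, Gli1 was measured at 63.4, 66.3 and 64.6 CPM with empty vector, at 29.8, 33.9 and 33.2 CPM with wild type and at 88.7, 50.8 and 83.6 CPM with Y238A. The wild-type libraries were all below the empty-vector libraries, while the Y238A libraries lay on both sides of them, replicate 2 being the low one. The log2 fold change was -1.004 ± 0.17 with wild type, a 2.01-fold fall (edgeR adjusted p = 4.66e-04). Y238A gave 0.20 ± 0.17 (edgeR adjusted p = 0.502), which became 0.41 (edgeR adjusted p = 0.00854) without Y238A replicate 2. Gli1 shares 62 exon bases with Arhgap9 on the opposite strand, and whether the authors' counting used strand is not given in the sources used here. Arhgap9 was at 0.0211 to 0.185 CPM in AT-3 and at 42.4 to 57.2 CPM in E0771, and its part in the Gli1 counts was not tested.

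Gli2, the main activator, rose with wild-type MRTFA in AT-3 and with Y238A in E0771. In AT-3 it was at 59.0, 51.0 and 50.5 CPM with empty vector, at 81.9, 69.3 and 66.1 CPM with wild type and at 47.0, 44.5 and 45.1 CPM with Y238A. The 3 groups did not overlap: wild type was highest and Y238A lowest. The change was 0.44 ± 0.08 with wild type (edgeR adjusted p = 1.23e-04) and -0.23 ± 0.09 with Y238A (edgeR adjusted p = 0.0322), the latter call being lost without empty vector replicate 1 (adjusted p = 0.211), Y238A replicate 2 (0.0971) or Y238A replicate 3 (0.0905). In E0771 the gene was at 4.39, 5.01 and 4.80 CPM with empty vector, at 4.70, 5.94 and 5.12 CPM with wild type and at 7.41, 7.54 and 6.91 CPM with Y238A. The Y238A libraries were above all others of that line, by 0.62 ± 0.10 over empty vector (edgeR adjusted p = 2.15e-04), while wild type overlapped empty vector (0.15, interval -0.06 to 0.36, edgeR adjusted p = 0.302).

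Gli3, the member processed mostly to a repressor, was lower with wild-type MRTFA in both lines. In AT-3 it was at 76.4, 73.0 and 66.2 CPM with empty vector, at 54.8, 45.1 and 43.4 CPM with wild type and at 65.2, 70.8 and 67.0 CPM with Y238A. Wild type was below both other groups, by 0.59 ± 0.07 on the log2 scale against empty vector (log2 fold change -0.59, edgeR adjusted p = 4.23e-07), and Y238A overlapped empty vector (-0.09, interval -0.24 to 0.06). In E0771 the values were 89.3, 88.7 and 85.1 CPM with empty vector, 71.1, 80.0 and 75.1 CPM with wild type and 80.2, 79.3 and 76.1 CPM with Y238A. Wild type gave -0.22 ± 0.07 (edgeR adjusted p = 0.0304), a call lost in 4 of the 6 analyses that left out 1 library (adjusted p = 0.0818 to 0.144), and Y238A gave -0.16 (edgeR adjusted p = 0.164).

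**Figure D1:**
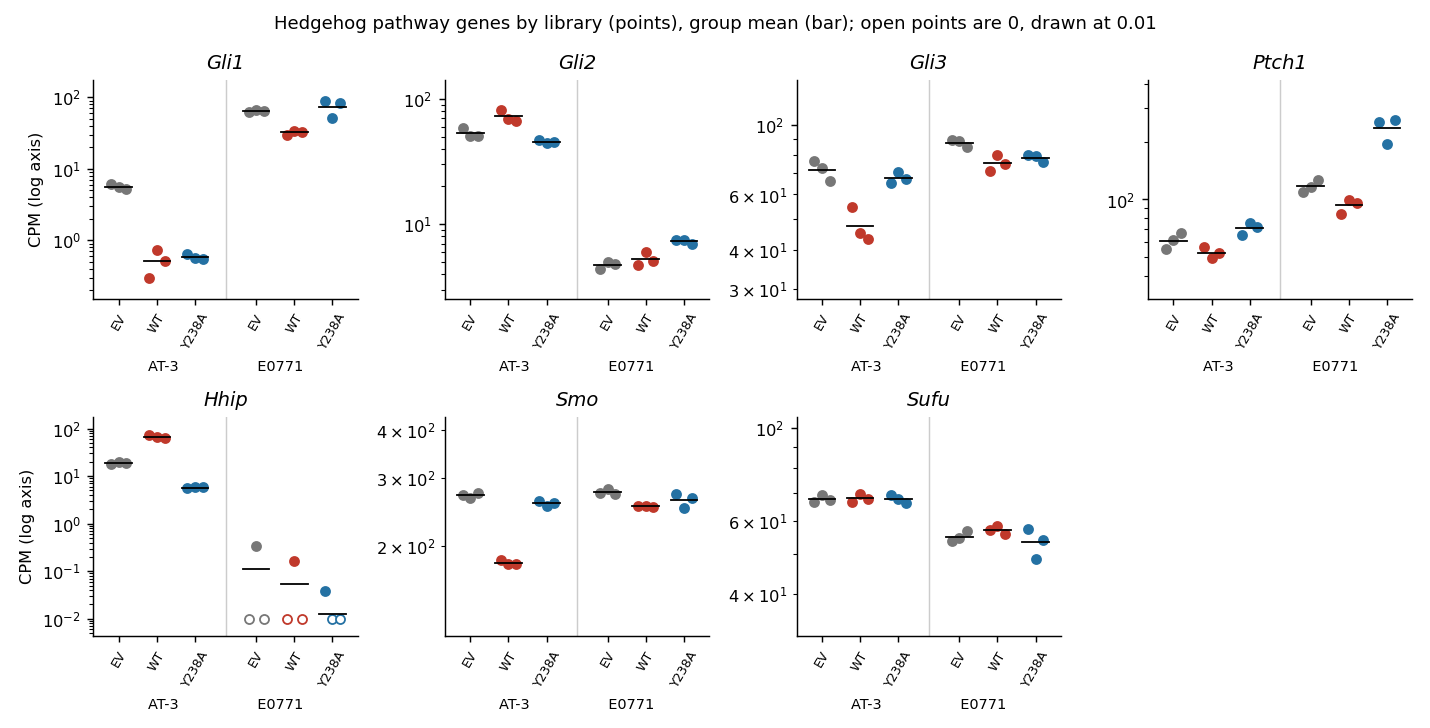
CPM on a log axis for the 7 members (y axis) in each library (points) of the 6 groups (x axis; EV, empty vector; WT, wild-type MRTFA), with group means as bars and zero counts as open points at 0.01. Gli1 in AT-3 drops from 5.24 to 6.18 CPM with empty vector to at most 0.738 CPM with either construct, and Hhip is near 0 throughout E0771.

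Ptch1, the ligand receptor, rose with Y238A in E0771. Its levels there were 109.2, 116.2 and 127.1 CPM with empty vector, 84.4, 99.8 and 95.5 CPM with wild type and 253 CPM, 194 CPM and 259 CPM with Y238A. The 3 groups did not overlap, and Y238A replicate 2, low for Gli1 too, was the lowest of its group here. The log2 fold change was 1.002 ± 0.11 with Y238A (2.003-fold, edgeR adjusted p = 9.41e-06) and -0.33 ± 0.10 with wild type (edgeR adjusted p = 0.0280), the latter kept in 2 of 6 analyses that left out 1 library and 7 of 15 alternatives (adjusted p up to 0.132). In AT-3 the levels were 55.1, 61.1 and 66.6 CPM with empty vector, 56.4, 49.3 and 52.7 CPM with wild type and 64.9, 75.3 and 71.8 CPM with Y238A. Both constructs overlapped empty vector there, at -0.21 with wild type (interval -0.43 to 0.02, edgeR adjusted p = 0.0944) and 0.21 with Y238A (interval -0.01 to 0.44, edgeR adjusted p = 0.118). The wild-type value passed the threshold in 5 of 15 alternatives, among them library totals in place of TMM (-0.36, adjusted p = 0.00609). Wild type was below Y238A in each line, by 0.42 ± 0.11 in AT-3 (log2 fold change -0.42, edgeR adjusted p = 0.00225) and by 1.34 ± 0.11 in E0771 (log2 fold change -1.34, edgeR adjusted p = 5.46e-08).

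Hhip, which encodes the ligand-sequestering inhibitor, moved in opposite directions with the constructs in AT-3. It was at 18.03, 19.7 and 19.1 CPM with empty vector, at 74.5, 65.6 and 64.0 CPM with wild type and at 5.55, 5.80 and 5.84 CPM with Y238A. The 3 groups were far apart relative to the spread within them. The change was 1.84 ± 0.32 with wild type (3.59-fold, edgeR adjusted p = 1.86e-04) and -1.72 ± 0.34 with Y238A (3.31-fold lower, edgeR adjusted p = 8.57e-04), and wild type exceeded Y238A 11.9-fold (edgeR adjusted p = 7.52e-07). DESeq2 on all 18 libraries gave nearly the same fold changes without a call (adjusted p = 0.353, 0.465 and 0.0639), with a standard error of 1.78. With AT-3 fitted alone, edgeR gave a standard error of 0.067 for wild type and 0.0724 for Y238A, with both calls kept (adjusted p = 5.30e-13 and 1.78e-11).

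In E0771, Hhip had 0 counts in 6 of 9 libraries, 32 counts in empty vector replicate 2, 16 in wild-type replicate 2 and 4 in Y238A replicate 1. These 3 libraries are those with the most AT-3 transcripts, and their Hhip levels came to 1.84%, 0.274% and 0.704% of the AT-3 groups with the same construct. No fold change between constructs is given for Hhip in E0771. The mean of Hhip over all 3 empty-vector libraries of E0771 was 169-fold lower than in AT-3 with empty vector. Of these libraries 2 had no count, and no fold change is given for them alone.

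Smo and Sufu encode the transducer and the GLI inhibitor. With wild type in AT-3, Smo fell from between 267 and 275 CPM to between 179.8 and 184 CPM with no overlap (-0.58 ± 0.04, edgeR adjusted p = 2.01e-11), and was at 255 to 262 CPM with Y238A (-0.07, interval -0.14 to 0.01, edgeR adjusted p = 0.148). In E0771 it lay between 252.9 and 254.1 CPM with wild type, below the 273.4 to 281 CPM of empty vector (-0.12 ± 0.04, edgeR adjusted p = 0.0184), a call kept in 3 of 6 analyses that left out 1 library and 9 of 15 alternatives (adjusted p up to 0.190). Y238A spanned 251 to 274 CPM there. Sufu was between 66.2 and 69.5 CPM in all 9 AT-3 libraries and between 48.5 and 58.4 CPM in E0771. Its change against empty vector did not pass with either construct, the intervals being -0.10 to 0.12 and -0.11 to 0.11 in AT-3 and -0.06 to 0.16 and -0.15 to 0.06 in E0771. With library totals in place of TMM, which moved the median of all genes by -0.139, Sufu was called lower with wild type in AT-3 (-0.14, edgeR adjusted p = 0.0155).

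Counted over the members, wild-type MRTFA in AT-3 gave 2 higher and 3 lower, and over all genes tested 36.4% were higher and 32.2% lower (68.6% called). Y238A in AT-3 gave 3 members lower, beside 21.4% of all genes higher and 22.2% lower (43.7% called). In E0771, wild type gave 4 members lower, beside 11.2% higher and 13.3% lower (24.5%), and Y238A gave 2 higher, beside 5.41% higher and 6.64% lower (12%). Wild type against Y238A gave 2 higher and 3 lower in AT-3, beside 34.8% and 31.4% of all genes (66.2%), and 3 lower in E0771, beside 12.7% higher and 13% lower (25.7%). Since these comparisons may have led to the choice of the members, nothing is read from the counts. Both constructs of a line were compared with the same empty-vector libraries. In E0771 with wild type the count of 4 fell to 1, Gli1, without empty vector replicate 2, wild-type replicate 1 or wild-type replicate 3, without the 3 libraries with the most AT-3 transcripts, and with a stricter filter on low counts, and to 2 with E0771 fitted alone. The log2 fold changes of Gli3, Ptch1 and Smo there stayed negative in all 15 alternatives.

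**Figure D2:**
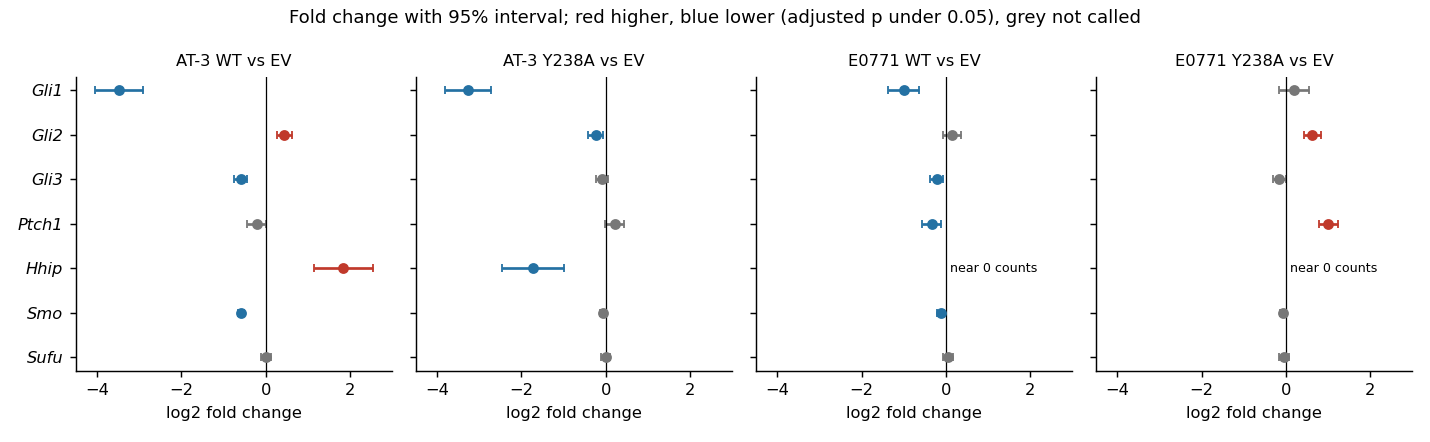
Log2 fold change against empty vector (x axis) of each member (y axis) in the 4 comparisons with empty vector, with 95% intervals from edgeR; Hhip is not drawn in E0771, where it is near 0 counts. Gli1 lies at -3.48 and -3.26 in AT-3 and at -1.004 with wild type in E0771, and Ptch1 at 1.002 with Y238A in E0771.

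With empty vector alone, the lines differed in which GLI gene they expressed. Gli1 was 11.5-fold higher in E0771 than in AT-3 (log2 fold change 3.52 ± 0.19, edgeR adjusted p = 1.56e-10) and Gli2 was 11.3-fold lower (-3.50 ± 0.10, edgeR adjusted p = 2.35e-17). Ptch1 was 1.93-fold and Gli3 1.22-fold higher in E0771, Sufu was 1.23-fold lower, and Smo differed by 0.03 (interval -0.05 to 0.10). Of the 7 members 3 were higher and 3 lower in E0771, and of all genes tested 35.2% were higher and 36.8% lower (72% called).

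The make-up of GLI transcripts was compared per kilobase of exon within each library, which needs no scaling between libraries. In AT-3 with empty vector Gli1 made up 6.88% ± 0.06 (SD, n = 3) of the summed GLI level, Gli2 47.4% ± 1.26 and Gli3 45.7% ± 1.30. Wild-type MRTFA left Gli1 at 0.680% ± 0.33, Gli2 at 67.5% ± 0.09 and Gli3 at 31.9% ± 0.41, and Y238A left them at 0.851% ± 0.08, 48.0% ± 1.67 and 51.1% ± 1.74. So with wild type Gli2 took the larger part, and with Y238A Gli2 and Gli3 were close to even by this length. The part of Gli1 was small with both constructs. In E0771 with empty vector Gli1 made up 56.9% ± 0.72, Gli2 3.02% ± 0.17 and Gli3 40.1% ± 0.89. With wild type Gli3 was the largest part there, at 52.1% ± 0.63 against 42.8% ± 0.70 for Gli1, and with Y238A Gli1 was at 65.3%, 52.0% and 65.2% in replicates 1, 2 and 3. With the longest transcript as gene length, Gli3 rather than Gli2 was the larger part in AT-3 with empty vector (48.2% against 44.2%). With Y238A in AT-3 that length gave 54.2% for Gli3 against 44.9% for Gli2, which is less even.

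**Figure D3:**
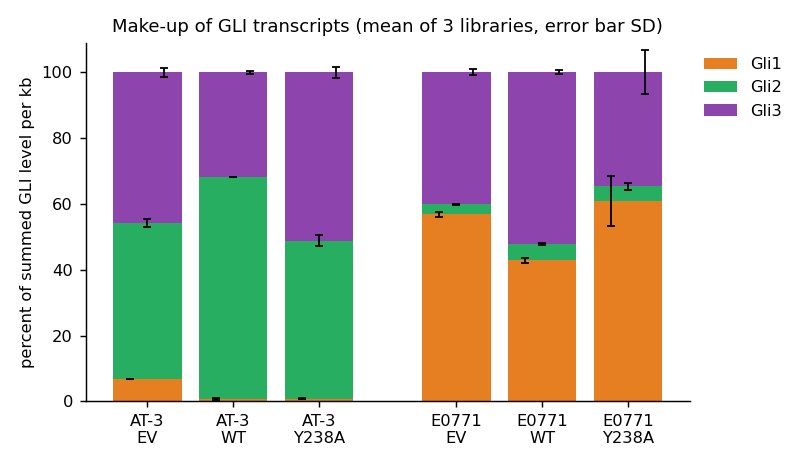
Share of Gli1, Gli2 and Gli3 in their summed level per kilobase of exon (y axis, percent; bars from 0) in each of the 6 groups (x axis), as the mean of 3 libraries with SD as error bars. Gli2 holds 47.4% to 67.5% in AT-3 and 3.02% to 5.05% in E0771.

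On the scale of library totals per kilobase of exon, Smo was the highest member in every group, at a mean of 28.7 to 47.6 CPM per kb in AT-3 and 46.5 to 51.2 CPM per kb in E0771. With empty vector in AT-3, Sufu (8.66 ± 0.17 CPM per kb), Gli2 (7.68 ± 0.69) and Gli3 (7.39 ± 0.54) came next, the last 2 within their spread of each other, then Ptch1 (4.24 ± 0.40), Hhip (2.06 ± 0.09) and Gli1 (1.11 ± 0.10). In E0771 with empty vector the order after Smo was Gli1 (13.5 ± 0.04 CPM per kb), Gli3 (9.53 ± 0.30) and Ptch1 (8.63 ± 0.65), whose libraries overlapped, then Sufu (7.45 ± 0.25), Gli2 (0.718 ± 0.04) and Hhip (0.0126 ± 0.02). Both orders depend on the gene length used, here all exon bases of a gene. For Sufu these are 7691 bases against 4522 in its longest transcript, for Ptch1 14185 against 10383 and for Gli3 9589 against 8170. The orders with the longest transcript as length were not computed.

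The response of each line to a construct was also compared directly, as the log2 fold change in E0771 less that in AT-3. Each construct was at a higher level in AT-3, so an effect of the line and one of the amount of construct cannot be told apart. For wild-type MRTFA this was positive and passed for 3 of 7 members, beside 23.3% of all genes positive and 24% negative (47.3%), and for Y238A likewise for 3 of 7, beside 12.2% and 13.6% (25.8%). The fall of Gli1 was smaller in E0771 with wild type (difference 2.48 ± 0.32, edgeR adjusted p = 1.45e-05), as was that of Smo. With Y238A, Ptch1 changed by 0.79 ± 0.15 more in E0771 than in AT-3 (edgeR adjusted p = 8.08e-04). For Ptch1 with wild type, a difference between the lines was not shown (-0.13, interval -0.44 to 0.19).

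Outside the 7 members, 52 pathway genes were listed by role from general knowledge of the pathway, and 51 of them passed the filter on low counts. With wild-type MRTFA in AT-3, 17 rose and 24 fell, beside 36.4% and 32.2% of all genes tested (median log2 fold change -0.20, against 0.07 over all genes), and with Y238A 13 rose and 12 fell, beside 21.4% and 22.2% (median -0.12, against 0.01). In E0771, 6 rose and 2 fell with wild type, beside 11.2% and 13.3% of all genes (median -0.09, against -0.05), and all 6 that passed with Y238A rose, beside 5.41% of all genes higher and 6.64% lower (median 0.03, against -0.01). One of these, Scube1, had 14 counts in all over the 3 Y238A libraries, and is named although its mean was under 1 CPM. The count of 6 was 3 without Y238A replicate 1, 2 without the 3 libraries with the most AT-3 transcripts and 13 with DESeq2. The E0771 wild-type count of 8 in all was 13 with a replicate block.

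Transcripts of the ligands were scarce. Shh had 2 counts in 1 of 18 libraries, Ihh was at 0.0199 to 0.199 CPM, and Dhh stood at no more than 0.115 CPM in AT-3 and at 0.805 to 1.71 CPM in E0771. No construct changed Ihh or Dhh against empty vector past the threshold in either line, and Dhh was higher in E0771 than in AT-3 with empty vector (5.23 ± 0.57 on the log2 scale, edgeR adjusted p = 5.87e-08).

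Of the 4 coreceptors Boc, Cdon, Gas1 and Lrp2, 2 rose and 2 fell with wild type in AT-3 (68.6% of all genes called), and 1 rose and 1 fell with Y238A (43.7%). Boc, which encodes a coreceptor that helps ligand reach Patched, was at 10.4, 11.7 and 11.7 CPM with empty vector and at 94.7, 104 and 97.6 CPM with wild type (3.13 ± 0.26, edgeR adjusted p = 9.08e-08), and at 9.37 to 10.96 CPM with Y238A. Gas1, another coreceptor, fell with wild type, from 17.6, 19.1 and 22.1 CPM to 6.37, 5.90 and 5.99 CPM (-1.68 ± 0.27, edgeR adjusted p = 1.18e-04). With Y238A it rose to 52.0, 60.7 and 60.7 CPM (1.56 ± 0.26, edgeR adjusted p = 3.18e-04). Cdon, the relative of Boc, fell with wild type in AT-3 (-0.50 ± 0.06, edgeR adjusted p = 5.63e-07). With Y238A its mean was 58.3 CPM, against 59.9 CPM with empty vector. In E0771, Boc was at no more than 0.632 CPM and Gas1 at no more than 0.232 CPM, and the highest value of each lay in a library with AT-3 transcripts, wild-type replicate 2 for Boc and empty vector replicate 2 for Gas1.

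Of 15 other listed target genes, 3 rose and 8 fell with wild type in AT-3, where 68.6% of all genes were called, and the 2 that passed with wild type in E0771, Bcl2 and Nkx2-2, rose. Bcl2, an inhibitor of apoptosis, changed by 1.55 ± 0.09 in AT-3 (edgeR adjusted p = 2.12e-12) and 0.94 ± 0.09 in E0771 (edgeR adjusted p = 5.31e-08), and with Y238A it fell in AT-3 (-0.63 ± 0.09, edgeR adjusted p = 3.89e-06). The homeobox gene Nkx2-2 changed by 4.38 ± 0.22 in AT-3 (edgeR adjusted p = 5.44e-13) and 1.82 ± 0.14 in E0771 (edgeR adjusted p = 4.87e-09). The cyclin gene Ccnd1 fell with wild type in AT-3 (-2.11 ± 0.11, edgeR adjusted p = 3.49e-11). Sfrp1, which encodes a secreted Wnt antagonist, rose with both constructs in AT-3, from 1.58 to 2.55 CPM with empty vector to 53.6 to 77.4 CPM with wild type and 133 to 138 CPM with Y238A. With Y238A the cyclin gene Ccnd2 rose in AT-3 (0.87 ± 0.05) and in E0771 (0.25 ± 0.04). Grem1, which encodes an antagonist of BMP ligands, fell with Y238A in AT-3 (-1.58 ± 0.42). It was lower with wild type there too, at a mean of 20.1 CPM against 54.3 CPM with empty vector and 18.1 CPM with Y238A.

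Gpr161, which encodes a receptor that keeps the pathway off in the cilium, rose with wild type in AT-3 (1.26 ± 0.06, edgeR adjusted p = 9.93e-14) and in E0771 (0.54 ± 0.06, edgeR adjusted p = 5.18e-07). With Y238A it fell in AT-3 (-0.26 ± 0.06) and rose in E0771 (0.23 ± 0.06). Efcab7, whose product anchors the Evc proteins in the cilium, fell with wild type in AT-3 (-1.50 ± 0.12) and E0771 (-0.45 ± 0.11). Evc2, which acts with Smoothened at the cilium base, was at 42.8 to 53.1 CPM in E0771 and fell there with wild type (-0.24 ± 0.08, edgeR adjusted p = 0.0435). In AT-3 it had 6 counts over all 9 libraries, on which its call with wild type rests. Arrb2, which encodes a beta-arrestin, rose with Y238A in AT-3 (1.0 ± 0.06) and E0771 (0.22 ± 0.06). With wild type in AT-3 it was lower, at 21.0 to 25.2 CPM against 31.1 to 32.9 CPM with empty vector.

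The cilium assembly genes had 1 higher and 5 lower of 6 with wild type in AT-3, beside 36.4% of all genes higher and 32.2% lower, among the lower Ift88 (-1.76 ± 0.17) and Ift172 (-1.13 ± 0.10), which encode subunits of the intraflagellar transport machinery. Tulp3, which encodes an adaptor that brings receptors into the cilium, and Disp1, which encodes the exporter of ligand, fell as well (-0.88 ± 0.08 and -0.70 ± 0.06). Of the 7 genes for GLI kinases and their scaffold, 4 rose and 2 fell with wild type in AT-3, beside the same shares. Prkacb, a catalytic subunit of protein kinase A, rose with wild type in both lines (0.97 ± 0.04 in AT-3 and 0.25 ± 0.04 in E0771) and fell with Y238A in AT-3 (-0.42 ± 0.04). Prkaca, the other catalytic subunit, rose with Y238A in AT-3 (1.0 ± 0.08). It was higher with wild type there too, at a mean of 551 CPM against 330 CPM with empty vector and 660 CPM with Y238A. Csnk1a1, a casein kinase gene, rose with wild type by 0.40 ± 0.04 in AT-3 and 0.42 ± 0.04 in E0771. Gsk3b, the glycogen synthase kinase gene, rose in AT-3 with wild type (0.65 ± 0.05) and Y238A (0.92 ± 0.05), and in E0771 with Y238A (0.16 ± 0.05). Hhat, which encodes the enzyme that attaches palmitate to the ligand, rose in E0771 with wild type (0.76 ± 0.14). In AT-3 it was higher with wild type as well, at a mean of 10.9 CPM against 5.61 CPM with empty vector. The ubiquitin ligase genes Spop and Cul3 changed by 0.34 ± 0.04 and -0.20 ± 0.04 with Y238A in AT-3. With wild type there, their means were 129 and 132 CPM, against 111 and 152 CPM with empty vector.

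**Figure D4:**
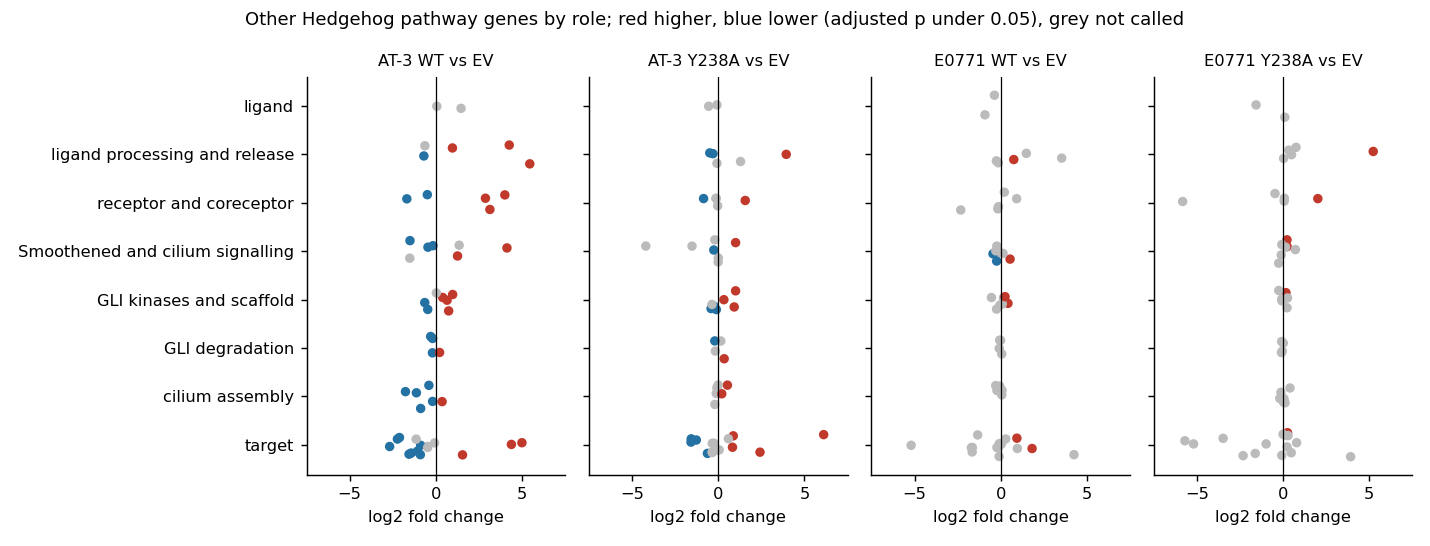
Log2 fold change against empty vector (x axis) of the other pathway genes that were tested, 1 point a gene, by role (y axis) in the 4 comparisons. In AT-3 with wild type 41 of 51 points are called, 17 higher and 24 lower, and in E0771 with Y238A 6 are called, all higher.

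The genes with the most similar pattern were sought by Pearson correlation of log2 CPM over the 18 libraries, among 11612 genes with a mean of at least 1 CPM. They were Birc5 (r = 0.993) and N4bp3 (0.992) for Gli1, Cnksr3 (0.996) and Ltbp1 (0.992) for Gli2, and Serpinb1a (0.967) and Hfe (0.962) for Gli3. For Ptch1 they were Cxxc5 (0.957) and Adar (0.956), for Hhip Adam12 (0.994) and Stbd1 (0.992), for Smo Cpped1 (0.988) and Cep164 (0.983), and for Sufu Actr1a (0.968) and Anln (0.968). The 18 libraries share 2 lines and 6 groups, so these values are a description.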

How the data were processed

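The authors deposited raw counts per gene for 18 libraries. Per the labels' protocols, RNA was prepared with Qiagen RNeasy and libraries with NuGen Universal Plus mRNA, and per the submitters' processing notes reads were aligned with STAR to GRCm38 and counted with featureCounts. Versions, annotation release and strandedness are not given in the sources used here. Between 61.9% and 64.6% of nonzero counts were even, so counts may not be single fragments.

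Groups came from the sample titles. Of 32286 entries, 32158 had a symbol by ID in GENCODE M21 (GRCm38), which also gave exon lengths. Counts were fitted in R 4.3.3 with edgeR 4.0.16: filterByExpr (minimum count 10, minimum total 15), TMM scaling, robust quasi-likelihood F tests over 6 group means with 12 residual degrees of freedom, and Benjamini-Hochberg adjustment over 17841 genes at 0.05. CPM used TMM library sizes and levels per kilobase used library totals. Intervals of fold changes are 95% and rest on the spread between libraries. Members and lists were chosen with earlier results of these data known, and no test over a list was made. All 7 members were named. Of the other pathway genes, those called at a mean CPM of 1 or more were named, by smallest p and up to 6 in each direction against empty vector, with the ligands, Boc, Cdon and Gas1 in any case, and 1 listed gene is not reported here. Patterns were compared on log2 CPM with a prior count of 2. The test was checked on simulated data. Results were recomputed with DESeq2 1.42.0, with size factors of DESeq2 in place of TMM, with plain totals, without a filter or with a stronger one, for each line by itself, with a replicate block and leaving out each library. Same-numbered libraries deviated together (correlation over 0.1) in all 3 pairs of empty vector and wild type in E0771. Replicate 3 of E0771 Y238A also did so with empty vector (0.459) and wild type (0.466). In AT-3, 0 of 9 same-numbered pairs did, while 8 of 18 differently numbered pairs in E0771 did. After the data were seen, leaving out 3 libraries with AT-3 transcripts, leaving out 2 libraries that stood apart, and another gene length were added.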

Additional observations from a re-analysis of the deposited data

Results flagged for a closer look

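Values here are the log2 fold change in E0771 less that in AT-3, and each passed the edgeR test of that difference over all genes. The lines also differed in the amount of each construct, which cannot be told apart from an effect of the line. With wild-type MRTFA the differences were 2.48 for Gli1, 0.37 for Gli3 (adjusted p = 0.0050) and 0.46 for Smo (adjusted p = 3.80e-07). In each case the fall seen in AT-3 was smaller in E0771. With Y238A they were 3.46 for Gli1 (adjusted p = 1.02e-06), 0.86 for Gli2 (adjusted p = 4.15e-05) and 0.79 for Ptch1. Gli1 fell with Y238A in AT-3 and was not called in E0771, and Gli2 was lower than empty vector in AT-3 and higher in E0771. These calls held in all 20 alternatives run for each difference. The E0771 Y238A group includes replicate 2, distant from its partners, and without it the differences were 3.66 for Gli1, 0.82 for Gli2 and 0.90 for Ptch1.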

How the results depend on the processing

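Of 288 recomputed counts of genes, 276 stayed within 1.5 times their value. Of the 7 members' log2 fold changes and the GLI shares, 957 recomputed values kept their side of the threshold or, for shares, stayed within their SD, 26 lost a call, 24 gained one, and 14 shares moved by more than their SD with the longest transcript as length. Among the 957, 40 values of 14 results, called in neither fit, changed sign, so no direction is read from them. In 2 more a call came with a change of sign, both for Sufu with library totals, at -0.14 for wild type against empty vector and -0.16 for wild type against Y238A in AT-3, where this scaling moved the median of all genes by -0.139 and -0.160.

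For wild type in E0771 the count of 4 members became 1 with the stricter filter, 2 with the line fitted alone and 1 without the 3 libraries with the most AT-3 transcripts, and ranged from 1 to 4 with 1 library left out. The other pathway genes called with Y238A in E0771, 6 in all, became 13 with DESeq2 and 2 without those 3 libraries, and ranged from 3 to 8 with 1 library left out. The members whose response differed between the lines with wild type, 3 in all, ranged from 3 to 5 with 1 library left out, 5 being without E0771 wild-type replicate 2.

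Same-numbered libraries correlated over 0.1 in their deviations from the group means in all 3 pairs of E0771 empty vector and wild type (0.419, 0.694 and 0.503), in 2 of the other 6 pairs in E0771 and in none of 9 in AT-3, while 8 of 18 differently numbered pairs in E0771 also did. With a replicate block, the other pathway genes called with wild type in E0771 went from 8 to 13 and the members whose wild-type response differed between lines from 3 to 5, with Gli2 (-0.29, adjusted p = 0.0225) and Hhip (-2.87, adjusted p = 0.0169) added, while the 4 members called with wild type in E0771 stayed 4 and no other count of those run moved by over 1.5 times. The comparison of the lines with empty vector could not be made with each line fitted alone, nor could Hhip be tested in E0771 alone. With 3 libraries a group and Hhip at or near 0 counts in E0771, no effect of a construct on Hhip there can be read.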
